A study of Homo sapiens with 6 samples.

Results

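The genes described here lie on the short arm of human chromosome 8 (8p). Their RNA levels were compared between samples labelled as PANC-1 with a knockout of the DKK1 super-enhancer and samples labelled as wild-type PANC-1. The list holds 60 genes and was selected on the expression difference between these same samples, so the differences between the groups are given as a description and support nothing further. Of the 60 listed names, 59 matched a row of the deposited table, which holds 62703 genes, and BMP1-AS1 matched no row by its name. In the GENCODE annotation of hg38, the matched members start between 6.41 Mb (MCPH1) and 31.03 Mb (WRN) of chromosome 8. Of the 59 matched genes, 58 had enough counts to enter the fit across 15179 genes, and LZTS1 did not.

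The arm 8p is often lost in epithelial cancers, and several of its genes have been proposed as tumour suppressors. It also carries a cluster of receptors for TRAIL, a ligand that triggers apoptosis when it binds receptors with an intracellular death domain, while decoy receptors bind the ligand without passing on a full death signal. Genes for DNA repair, mitosis, RNA synthesis and lysosomal function lie between them.

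PANC-1 is an established line from a human pancreatic ductal carcinoma. The DKK1-SE-/- group is labelled as PANC-1 with a knockout of the DKK1 super-enhancer (DKK1-SE-KO). The study's text describes a homozygous CRISPR-Cas9 deletion of e1, the core element of the super-enhancer, and a single clone of this genotype. The DKK1-SE+/+ group is labelled as wild-type PANC-1, and both groups were cultured in DMEM with serum and antibiotics. Stranded mRNA sequencing was made from 3 biological replicates of each group, with total expected counts from 16475810 to 21822314 per sample. The replicates of the DKK1-SE-/- group are samples of that single clone, so their spread measures variation between samples and not between independent clones.

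The labels were checked against DKK1 and cell markers. DKK1, the gene that the super-enhancer is named for, had a TPM (transcript abundance corrected for length and scaled to the same total in each library) of 229, 246 and 198 in the DKK1-SE+/+ samples and 66.8, 79.8 and 82.7 in the DKK1-SE-/- samples, in the direction that the genotype labels give. The keratin genes KRT8 and KRT18 and the filament gene VIM were abundant in every sample, as is known of this line. The mean TPM of KRT8 was 957 ± 27.2 in the DKK1-SE+/+ group and 1560 ± 171 in the DKK1-SE-/- group, and that of VIM was 4159 ± 390.5 and 2684 ± 143 (SD, n = 3). KRT19, another epithelial keratin, had 53.9 ± 5.79 and 172 ± 25.9 TPM (SD, n = 3). The epithelial adhesion gene EPCAM went the other way, with 4.17 ± 0.554 and 2.58 ± 0.803 TPM (SD, n = 3) and a log2 fold change of -0.67. Of 14 markers of acinar cells, fibroblasts, endothelium and immune cells, 3 were at 0 in all samples and 1, CD14, passed the count filter. CD14 was the most abundant of them, with a mean TPM of 0.47 ± 0.173 and 1.36 ± 0.252 (SD, n = 3). The summed TPM of the 14 markers was 1.98, 0.98 and 1.37 in the DKK1-SE+/+ samples and 1.9, 2.15 and 1.56 in the DKK1-SE-/- samples.

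CDKN2A, a gene for inhibitors of the cell cycle, is known to be homozygously deleted in PANC-1. It was at 0 counts in each DKK1-SE+/+ sample and had 91, 132 and 54 counts in the DKK1-SE-/- samples, at least 95.4-fold higher against a floor of 3 counts summed over the group. Its neighbour CDKN2B, added after its values were seen, also had 0 counts throughout the DKK1-SE+/+ group, with 5, 3 and 7 counts in the DKK1-SE-/- samples. MTAP, the neighbour on the other side, had reads in both groups, with 37, 47 and 57 counts and 60, 50 and 68 counts, and was not called. Its TPM ran the other way, with 2.17, 3.86 and 4.17 against 1.62, 1.24 and 3.07 in overlapping groups. The DKK1-SE-/- libraries therefore go against their label as PANC-1 cells, as far as this deletion defines the line, and the name DKK1-SE-/- stands below for the label of these 3 libraries. Whether they hold RNA from other cells was not tested. All 3 libraries of the group carry these counts, so no result can be given without them. The deletion of e1, the growth of a single clone and the origin of the cells cannot be told apart in these samples, and DNA copy number was not analysed here.

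Most members had lower RNA levels in the DKK1-SE-/- samples. Summed over the 59 matched members, the level was 3012, 3162 and 3145 TPM in the DKK1-SE+/+ samples and 1459, 1406 and 1478 TPM in the DKK1-SE-/- samples. The groups did not overlap, and the DKK1-SE-/- mean was 46.6% of the DKK1-SE+/+ mean. CLU, the gene of the secreted chaperone clusterin, was the most abundant member, and without it the sum was 1416, 1488 and 1461 TPM against 701.3, 695.6 and 766 TPM, or 49.6% of the DKK1-SE+/+ mean. In bulk RNA, fewer cells of a kind and less RNA per cell cannot be told apart.

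The same shift appeared in each library. Relative to the DKK1-SE+/+ mean, the median log2 difference of the members was -0.91, -0.93 and -0.93 in DKK1-SE-/- replicates 1, 2 and 3. Each DKK1-SE+/+ sample, set against the mean of the other samples of its group, had a median of -0.04, 0.03 and -0.03. Of the 58 tested members, 52, 52 and 53 lay below the DKK1-SE+/+ mean in the 3 DKK1-SE-/- samples. The median log2 fold change of the tested members was -0.97, where the median over all 15179 genes was 0.03.

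**Figure D1:**
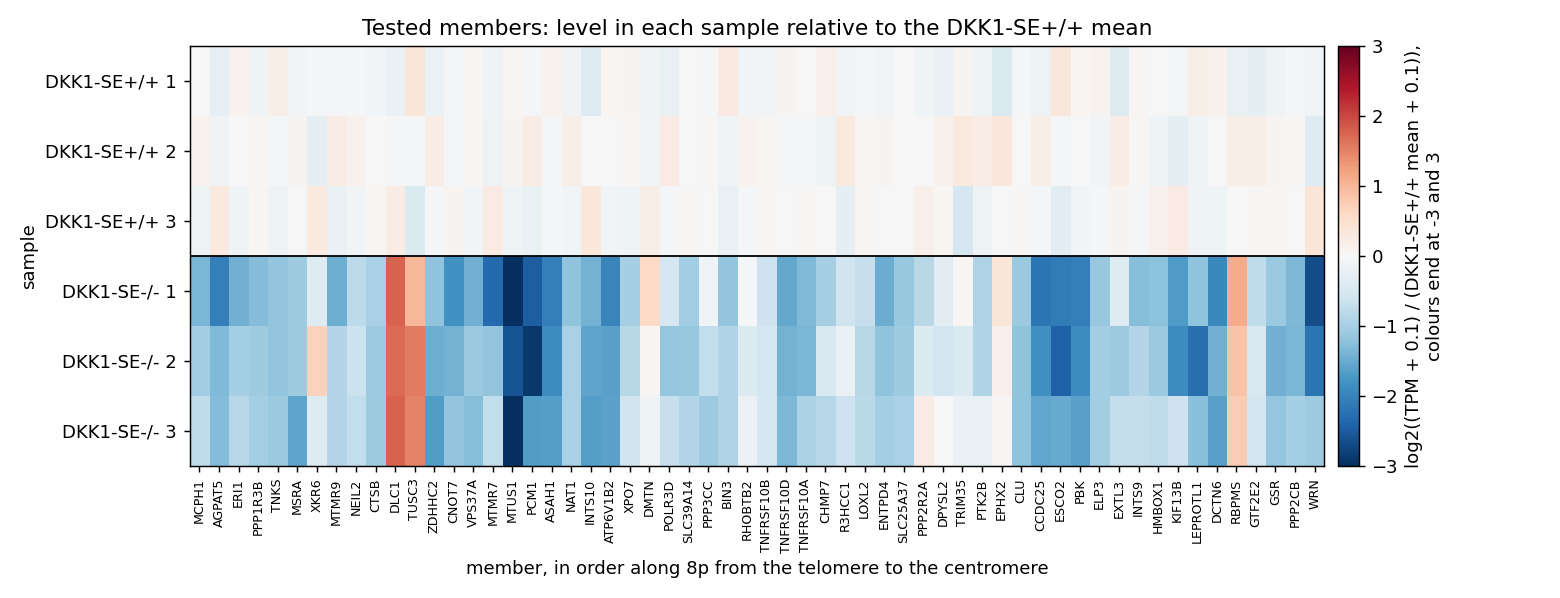
Each column is a tested member in its order along 8p and each row a sample, coloured by the log2 ratio of its TPM to the DKK1-SE+/+ mean after adding 0.1 to both. The DKK1-SE-/- rows are blue for most members, and DLC1, TUSC3 and RBPMS are red in all 3 of them.

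In edgeR's quasi-likelihood fit, 45 members were lower and 4 were higher at a Benjamini-Hochberg adjusted p under 0.05, while 9 passed the count filter without a call. Among the called members, TUSC3 and EPHX2 (higher) and NAT1 (lower) passed the count filter only through the group with the higher level. Over all tested genes, 19.5% were called lower and 19.8% higher, and since the members were selected on this contrast nothing is read from the difference. The same holds for each count of called members given by role below, to be set against these shares. The study set its own calls by a p-value under 0.05 and a fold change. Its text does not say whether that p was adjusted, or whether the fold limit is on the log2 scale. At an unadjusted p under 0.05 with a linear fold change of 1.2 or more, 47 members were lower and 4 higher, and the shares over all genes were 23.3% and 24.3%. With 1.2 as a log2 fold change, 18 members were lower and 2 higher, and the shares over all genes were 3.7% and 4.96%. Every DKK1-SE-/- TPM lay below every DKK1-SE+/+ TPM for 47 tested members and above for 3. Among all tested genes these shares were 26.7% and 17.5%.

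The 3 listed TRAIL receptors of the arm were called lower, as were 19.5% of all tested genes. TNFRSF10A, which encodes a TRAIL receptor with a death domain, had 22.6, 21.8 and 22.8 TPM in the DKK1-SE+/+ samples and 8.93, 8.54 and 11.6 TPM in the DKK1-SE-/- samples. Its log2 fold change was -0.94 (SE 0.121), close to the median of the members. TNFRSF10D, a decoy receptor with a truncated death domain, had 14.8, 13.4 and 13.8 TPM and 4.77, 5.13 and 5.47 TPM, with a log2 fold change of -1.30 (SE 0.119). TNFRSF10B, the more abundant death-domain receptor, had the smallest difference of the 3. Its TPM was 54.8, 60.6 and 59.5 in the DKK1-SE+/+ samples and 37.97, 40.3 and 40.3 in the DKK1-SE-/- samples, and its log2 fold change was -0.38 (SE 0.0983). The groups did not overlap for any of these 3 receptors, as for 26.7% of all tested genes in this direction. The call for TNFRSF10B was lost with a replicate block and without DKK1-SE+/+ replicate 2 or 3, where its log2 fold changes were -0.38, -0.36 and -0.37. TNFRSF10B was the most abundant of the 3 receptors in every sample, with a mean of 58.3 ± 3.11 TPM in DKK1-SE+/+ and 39.5 ± 1.36 TPM in DKK1-SE-/- samples (SD, n = 3). The other decoy receptor of the cluster, TNFRSF10C, is not a member and had 1, 1 and 0 counts and 5, 0 and 1 counts, too few to compare. The receptors are related in sequence, and reads shared between them could be assigned to either.

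Genes of the TRAIL pathway outside the arm were also examined. TNFSF10, which encodes TRAIL itself, failed the count filter, with 18, 8 and 15 counts in the DKK1-SE+/+ samples and 0, 4 and 3 counts in the DKK1-SE-/- samples. Of 23 listed pathway genes, 20 were tested, and 7 were lower, 4 higher and 9 not called, with a median log2 fold change of -0.17. The share called higher was close to the 19.8% of all tested genes, and 19.5% of all tested genes were called lower. BIRC3 and BIRC2, which encode inhibitor of apoptosis proteins, had log2 fold changes of -0.98 (SE 0.189) and -0.78 (SE 0.167), with adjusted p = 0.00221 and 0.00398 in edgeR's quasi-likelihood test with Benjamini-Hochberg adjustment. Both lie on chromosome 11 between 100 and 110 Mb, where the median log2 fold change was -0.70 and 21 of 32 tested genes were called lower. BID and BAX, which encode proteins that promote the release of cytochrome c from mitochondria, had log2 fold changes of 0.73 (SE 0.142) and 0.68 (SE 0.142), with adjusted p = 0.00239 and 0.00347 in the same edgeR test with Benjamini-Hochberg adjustment. CASP8, the caspase that the receptors recruit, had 19.9, 26.04 and 22.4 TPM and 13.6, 11.2 and 17.3 TPM in the groups, and its adaptor FADD had 36.8, 31.03 and 34.6 TPM and 31.5, 32.5 and 26.6 TPM. The groups overlapped for FADD and not for CASP8. CASP8 and FADD were named after their values were seen. CASP8 lies on chromosome 2 between 200 and 210 Mb, where the median was -0.51 and 31 of 50 tested genes were called lower. The windows of 10 Mb that hold BID and BAX had medians of 0.29 and 0.23. Whether these pathway genes differ from their neighbours was not tested.

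The candidate tumour suppressors held genes called in both directions. Of 7 listed, 6 were tested, and 3 were lower, 2 were higher and 1 was not called, where 19.5% of all tested genes were called lower and 19.8% higher. MTUS1, which encodes a microtubule-associated protein, showed the lowest log2 fold change of the members. Its TPM was 9.34, 9.54 and 8.19 in the DKK1-SE+/+ samples and 0.25, 1.41 and 0.66 in the DKK1-SE-/- samples, and its log2 fold change of -4.15 (SE 0.229) lay at -3.18 relative to the median of the members. BIN3, a gene for a BAR-domain protein that shapes membranes and actin, had 24.2, 18.4 and 17.2 TPM and 8.71, 10.6 and 10.6 TPM. Its log2 fold change of -0.83 (SE 0.141) was near that median.

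DLC1 and TUSC3 went the other way and are neighbours among the members, at places 11 and 12 in their order along the arm. The TPM of DLC1 was 5.02, 5.57 and 6.71 in the DKK1-SE+/+ samples and 19.9, 19.1 and 19.9 in the DKK1-SE-/- samples, with a log2 fold change of 1.93 (SE 0.126). TUSC3 encodes a subunit of the oligosaccharyltransferase that glycosylates proteins in the endoplasmic reticulum. It had 2, 2 and 3 counts in the DKK1-SE+/+ samples and 13, 18 and 22 counts in the DKK1-SE-/- samples, so it passed the filter through the group in which it was higher. The ratio of summed CPM (counts scaled to library totals) was 7.82, with a 95% exact binomial interval from 3.54 to 20.4 that covers counting error only. As TUSC3 was selected on this contrast, nothing is read from the interval. Its mean TPM stayed low in both groups, at 0.333 ± 0.121 and 1.01 ± 0.221 (SD, n = 3).

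The remaining candidates showed smaller differences. RHOBTB2, which encodes a protein that works with a ubiquitin ligase, had 3.49, 3.96 and 3.59 TPM and 3.54, 2.76 and 3.23 TPM, groups that overlapped, with a log2 fold change of -0.06 (SE 0.146) that was not called and was 0.01 without DKK1-SE+/+ replicate 2. PPP2R2A, which encodes a regulatory subunit of the phosphatase PP2A, had 24.3, 26.3 and 29.4 TPM and 14.98, 19.9 and 31.8 TPM. Its highest sample belonged to the DKK1-SE-/- group, so the TPM values overlapped. Its log2 fold change from counts was -0.36 (SE 0.126) and became 0.04 with a GC-content offset. The call was also lost with a replicate block (-0.37) and with limma on log2(TPM + 0.1) and log2(TPM + 1) (-0.33 and -0.31). Leaving out any single sample other than DKK1-SE-/- replicate 3 lost it as well, at log2 fold changes from -0.43 to -0.30. LZTS1, a leucine zipper gene, was near 0 throughout, with 0, 1 and 0 counts in the DKK1-SE+/+ samples and 3, 0 and 1 counts in the DKK1-SE-/- samples, and no fold is given.

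**Figure D2:**
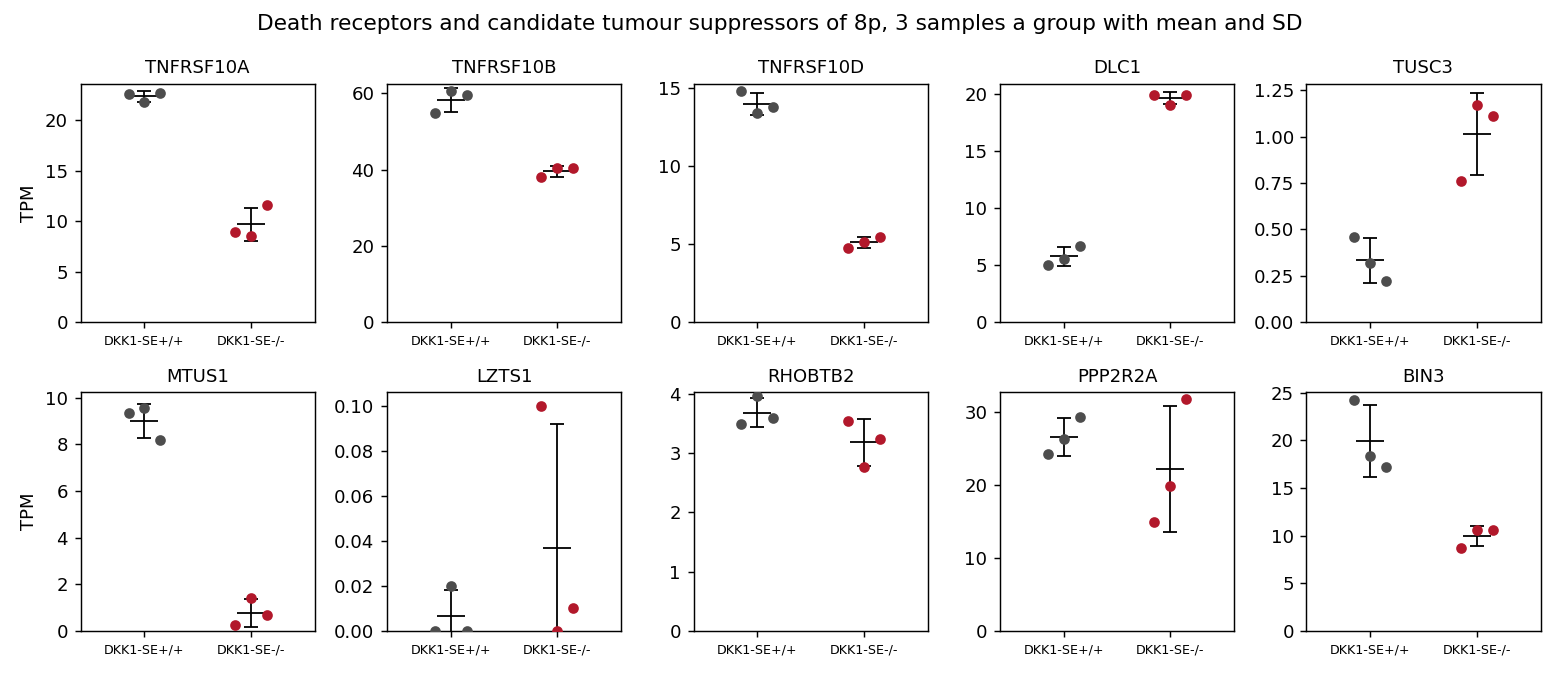
TPM of the 3 listed TRAIL receptors and 7 candidate tumour suppressors, with a point per sample and the mean and SD of 3 samples. Each panel starts at 0 on its own scale. The groups are apart for the receptors, MTUS1, BIN3, DLC1 and TUSC3, and overlap for LZTS1, RHOBTB2 and PPP2R2A.

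In the genome maintenance and mitosis list, all 12 genes were called lower, with a median log2 fold change of -1.27, where 19.5% of all tested genes were called lower. ESCO2 encodes an acetyltransferase of cohesin that holds sister chromatids together. It had 10.2, 7.73 and 6.32 TPM in the DKK1-SE+/+ samples and 1.82, 1.43 and 2.75 TPM in the DKK1-SE-/- samples, a log2 fold change of -2.05 (SE 0.197). PCM1, the scaffold of centriolar satellites, had 28.1, 33.8 and 25.4 TPM and 5.18, 3.82 and 9.09 TPM, a log2 fold change of -2.02 (SE 0.197). PBK, a gene for a mitotic kinase that overlaps ESCO2 on the other strand, had 53.8, 52.7 and 49.1 TPM and 12.5, 13.97 and 16.8 TPM. Its log2 fold change was -1.73 (SE 0.137), and for these 3 genes each DKK1-SE-/- sample was under every DKK1-SE+/+ sample. WRN, the helicase gene of Werner syndrome, had 6.69, 5.34 and 9.16 TPM and 1.03, 1.46 and 3.34 TPM, with a wide spread in both groups and a log2 fold change of -1.56 (SE 0.183). DCTN6, a subunit gene of the dynein partner dynactin, had a log2 fold change of -1.51, and the kinesin gene KIF13B one of -1.41. MCPH1, a gene of chromosome condensation and the DNA damage response, had one of -1.13 and the telomere-binding gene HMBOX1 one of -0.96. The smaller differences of the list were those of TNKS, a poly-ADP-ribose polymerase of telomeres (-0.92), the nuclear envelope repair gene CHMP7 (-0.71), the nuclear transport gene XPO7 (-0.63) and the DNA glycosylase gene NEIL2 (-0.56).

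Genes of RNA synthesis and processing were mostly lower. Of 8 genes, 6 were called lower and 1 higher, where the shares over all tested genes were 19.5% and 19.8%. The median log2 fold change was -0.92. INTS10, a subunit gene of the Integrator complex, had 25.3, 32.9 and 41.1 TPM in the DKK1-SE+/+ samples and 12.3, 10.98 and 10.4 TPM in the DKK1-SE-/- samples. CNOT7, a deadenylase of the CCR4-NOT complex, had 49.9, 49.2 and 54.2 TPM and 14.5, 19.1 and 22.6 TPM. Their log2 fold changes were -1.26 (SE 0.119) and -1.16 (SE 0.109). Values between these and the median were found for ERI1, an exonuclease of histone mRNA and small RNA (-1.11), and ELP3, the catalytic subunit of Elongator (-0.99). POLR3D, a subunit gene of RNA polymerase III, had -0.85, the other Integrator gene INTS9 -0.84 and GTF2E2, a subunit gene of the initiation factor TFIIE, -0.33, all as log2 fold changes. GTF2E2 was the gene of this list without a call, and it was called lower with library size alone and with limma on log2 TPM, while its log2 fold change was -0.13 with a GC-content offset.

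RBPMS, which encodes an RNA-binding protein of mRNA processing, was the exception in this list. It had 13.02, 17.03 and 15.4 TPM in the DKK1-SE+/+ samples and 33.02, 27.3 and 25.8 TPM in the DKK1-SE-/- samples. The groups did not overlap and its log2 fold change was 0.91 (SE 0.147). Its antisense neighbour RBPMS-AS1, which is not a member, had few reads, 8, 3 and 9 counts and 11, 17 and 12 counts, and was not called. The gene next to RBPMS in the order of the members, GTF2E2, lay in the other direction, with 16.99, 23.9 and 21.3 TPM against 12.2, 14.9 and 14.2 TPM.

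In the lysosome, lipid and small-molecule metabolism list, 12 of 14 genes were called lower and 1 higher, with a median log2 fold change of -1.17. Over all tested genes 19.5% were called lower and 19.8% higher. CTSB, the gene of the lysosomal protease cathepsin B, was the second most abundant member. It had 237, 254 and 260.1 TPM in the DKK1-SE+/+ samples and 127, 118 and 119 TPM in the DKK1-SE-/- samples, a log2 fold change of -0.89 (SE 0.102). ASAH1, the acid ceramidase gene of lysosomal lipid breakdown, had 27.5, 24.4 and 24.8 TPM and 6.1, 6.69 and 8.01 TPM, a log2 fold change of -1.87 (SE 0.144). ATP6V1B2, a subunit gene of the proton pump that acidifies lysosomes, had 53.3, 51.3 and 48.5 TPM and 12.8, 16.4 and 16.8 TPM, a log2 fold change of -1.59 (SE 0.118). For all 3 lysosomal genes the groups were far apart. ZDHHC2, which encodes a palmitoyltransferase, had 12.6, 16.5 and 13.6 TPM and 6.13, 5.08 and 4.4 TPM. The DKK1-SE-/- level of ZDHHC2 was 36.6% of the DKK1-SE+/+ level by TPM and 22.7% by its log2 fold change of -2.14 (SE 0.133). TPM is corrected for transcript length and counts are not, and whether this bears on the gap was not tested.

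Membrane transporters and redox enzymes of this list had differences close to the median of the members. SLC25A37, the gene of the mitochondrial iron importer mitoferrin, had 61.7, 62.98 and 61.6 TPM and 28.2, 29.6 and 31.8 TPM, and SLC39A14, a zinc and iron transporter gene, had 52.1, 52.7 and 53.8 TPM and 25.7, 23.9 and 28.9 TPM. Log2 fold changes were -0.97 for SLC25A37, -0.88 for SLC39A14 and -1.06 for the glutathione reductase gene GSR. MSRA, whose product reduces oxidised methionine, had a mean TPM of 17.2 ± 1.08 and 7.35 ± 1.404 (SD, n = 3). The acyltransferase gene AGPAT5 had a log2 fold change of -1.55, the nucleotidase gene ENTPD4 -1.17, the myotubularin-related genes MTMR9 and MTMR7 -1.16 and -1.69, and the arylamine acetyltransferase gene NAT1 -1.21. The call for NAT1 was lost with a GC-content offset, at -0.80, and without DKK1-SE-/- replicate 2, at -0.93. Without DKK1-SE+/+ replicate 1 or 2 it was lost at -1.19 and -1.23. MTMR7 was low, with 24, 21 and 35 counts and 0, 10 and 13 counts, and was not called, though it was in 7 other settings, among them DESeq2 (-1.74) and the replicate block (-1.89). EPHX2, which encodes the soluble epoxide hydrolase, was called higher on few reads. It had 12, 7 and 15 counts in the DKK1-SE+/+ samples and 21, 29 and 21 counts in the DKK1-SE-/- samples, a log2 fold change of 1.17 (SE 0.375). EPHX2 passed the count filter only through the group in which it was higher, so nothing is read from its call. The TPM values of EPHX2, 0.6, 1.11 and 0.84 against 1.13, 0.96 and 0.88, overlapped, and with limma on log2(TPM + 1) the difference was 0.11, no longer called. Its call was also lost with DESeq2 (1.17), with a replicate block (1.19) and without the count filter (1.16). Without DKK1-SE-/- replicate 1 or 2 the call was lost at 1.17 and 1.08. Without DKK1-SE+/+ replicate 1 or 2 it was lost at 1.07 and 1.00.

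The 3 phosphatase genes were called lower, with a median log2 fold change of -1.04, where 19.5% of all tested genes were called lower. PPP2CB, a catalytic subunit gene of PP2A, had 60.4, 64.6 and 62.6 TPM in the DKK1-SE+/+ samples and 24.5, 23.99 and 31.04 TPM in the DKK1-SE-/- samples. Its difference, -1.09 (SE 0.105), was larger than that of the regulatory subunit gene PPP2R2A, and whether they differ was not tested. PPP1R3B, which targets a phosphatase to glycogen, had a log2 fold change of -1.04. PPP3CC, a catalytic subunit gene of calcineurin, had one of -0.60, with DKK1-SE-/- samples spread over 7.44, 4.88 and 3.81 TPM against 7.94, 8.34 and 8.28 TPM. The call for PPP3CC was lost with limma on log2(TPM + 0.1) and log2(TPM + 1), where its differences were -0.65 and -0.57.

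In the list of adhesion, secretion, cytoskeleton, trafficking and other genes, 6 of 12 tested genes were called lower and 6 were not called. The share called lower over all tested genes was 19.5%. CLU had 1596, 1674 and 1685 TPM in the DKK1-SE+/+ samples and 758, 710.1 and 712 TPM in the DKK1-SE-/- samples, the highest levels of the members. Its log2 fold change was -0.96 (SE 0.105). LOXL2, which encodes a secreted lysyl oxidase of the extracellular matrix, had 80.5, 86.7 and 85.8 TPM and 51.95, 47.5 and 48.3 TPM, a log2 fold change of -0.59 (SE 0.107). LEPROTL1, a gene for a membrane protein of the endosome and Golgi, had 49.1, 38.6 and 39.7 TPM and 18.4, 8.72 and 17.7 TPM. Its log2 fold change of -1.85 (SE 0.117) was the lowest of this list. CCDC25 had a log2 fold change of -1.48, the endosomal sorting gene VPS37A -1.21 and the heparan sulfate glycosyltransferase gene EXTL3 -0.70.

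The 6 genes of this list without a call had small differences or few reads. DPYSL2, which encodes a microtubule-binding protein, was well expressed, with 22.7, 28.3 and 27.2 TPM and 20.5, 17.4 and 26.1 TPM in overlapping groups and a log2 fold change of -0.15 (SE 0.128). TRIM35, of the tripartite motif family, had -0.27 and R3HCC1 had -0.32 as log2 fold changes. With a GC-content offset both were called lower, at -0.48 and -0.62. PTK2B, a gene for a kinase related to focal adhesion kinase, had 1.16, 1.5 and 1.14 TPM and 0.62, 0.63 and 1.08 TPM, and DMTN, of the actin-bundling protein dematin, had 0.59, 0.61 and 0.74 TPM and 1.03, 0.68 and 0.58 TPM. Their log2 fold changes from counts were -0.32 and -0.57, and for DMTN the mean TPM was higher in the DKK1-SE-/- group, at 0.763 ± 0.236 against 0.647 ± 0.0814 (SD, n = 3). XKR6 had 0.48, 0.39 and 0.64 TPM and 0.36, 0.88 and 0.36 TPM, with 1 DKK1-SE-/- sample above the others and a log2 fold change of 0.07 (SE 0.378). Its direction changed without that sample, DKK1-SE-/- replicate 2, at -0.17.

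The size of the difference varied among the tested members. The interquartile range of their log2 fold changes ran from -1.29 to -0.57, and 32 of 58, or 55.2%, lay within 0.5 of the median. Over all tested genes this range ran from -0.37 to 0.40, and 61.5% lay within 0.5 of their own median. The 3 members nearest to the median were SLC25A37, CLU and HMBOX1, whose levels in DKK1-SE-/- samples were 48.1%, 44% and 48.5% of the DKK1-SE+/+ level by mean TPM. The 6 members with the lowest log2 fold changes were MTUS1, ZDHHC2, ESCO2, PCM1, ASAH1 and LEPROTL1. The 6 highest were TUSC3, DLC1, EPHX2, RBPMS, XKR6 and RHOBTB2. Of these 6, DLC1, RBPMS and RHOBTB2 had a mean TPM above 1 in both groups.

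**Figure D3:**
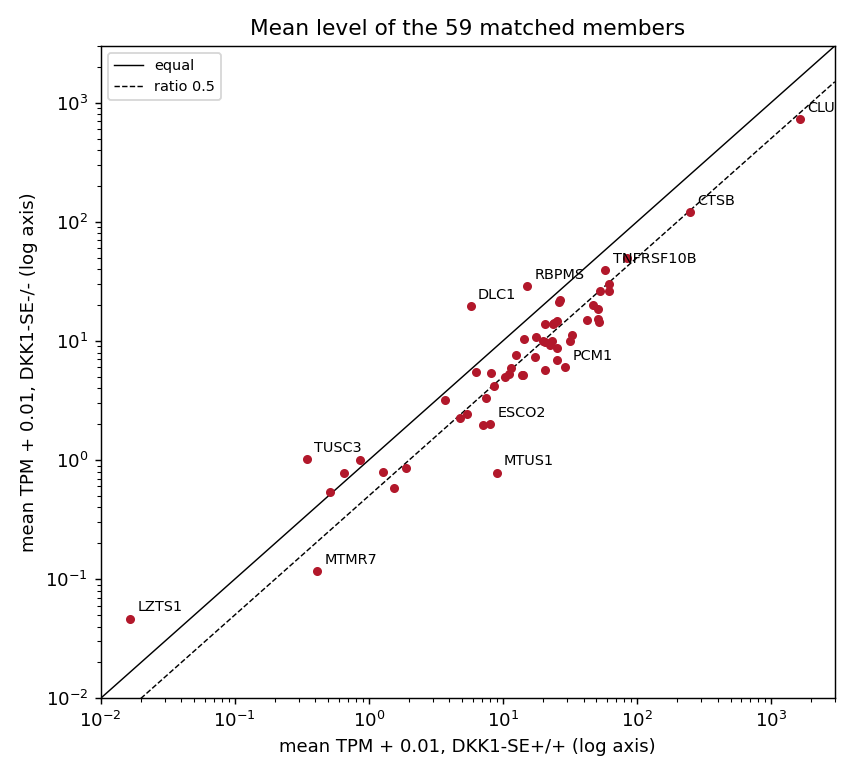
Mean TPM of the 59 matched members in DKK1-SE+/+ (x axis) and DKK1-SE-/- samples (y axis), both on log axes after adding 0.01. Of the 59 points, 52 lie below the line of equal levels, 24 of them with a ratio between 0.4 and 0.6, around the dashed line of 0.5. The 7 above it are DLC1, RBPMS, TUSC3, EPHX2, XKR6, DMTN and LZTS1, of which the last 3 and TUSC3 and EPHX2 are under 1 TPM in DKK1-SE+/+ samples, and MTUS1 lies far below.

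The rest of the arm shared the direction of the members. In all, 182 genes of 8p were tested, 116 were called lower and 9 higher, and the median log2 fold change was -0.84, where 19.5% of all tested genes were called lower and 19.8% higher. The 124 tested genes of the arm that are not members had a median of -0.75, with 71 called lower and 5 higher. Of those called higher, NEFM, PDGFRL and DUSP4 passed the count filter only through the DKK1-SE-/- group. Among genes with a mean TPM of at least 5, the members and the other 8p genes had like medians, -0.96 for 45 members and -0.98 for 63 others. In the DKK1-SE-/- replicates 1, 2 and 3 the median over the 182 genes was -0.85, -0.89 and -0.78 relative to the DKK1-SE+/+ mean.

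Among the lowest and highest of the other 8p genes, 3 had a group at 0. The long non-coding RNA genes ENSG00000260721 and LINC00681 had 80, 52 and 53 counts and 28, 14 and 16 counts in the DKK1-SE+/+ samples and 0 throughout the DKK1-SE-/- group. Against a floor of 3 counts summed over the group they were at least 59.7-fold and 18.7-fold lower. MICU3, which encodes a regulator of mitochondrial calcium uptake, had 1.13, 1.01 and 1.64 TPM and 0.3, 0.2 and 1.86 TPM, groups that overlapped, while its log2 fold change from counts was -2.23. NEFM, a neurofilament gene, was at 0 in the DKK1-SE+/+ group and had 21, 30 and 29 counts in the DKK1-SE-/- samples, at least 27.5-fold higher. PDGFRL and DUSP4 had log2 fold changes of 2.28 and 2.22 on few reads, at mean levels under 1 TPM. PDGFRL had 1, 2 and 6 counts in the DKK1-SE+/+ samples and 11, 15 and 16 in the DKK1-SE-/- samples. For DUSP4 these were 10, 3 and 11 and 44, 31 and 27 counts. All of these other 8p genes passed the count filter only through the group in which they were higher, so nothing is read from their calls. PDGFRL overlaps MTUS1 on the other strand. With the 3 genes that were at 0 in a group set to their bounds, the median of the arm was still -0.84.

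The sign of the median changed at the centromere. In windows of 5 Mb, the medians of the 9 windows of 8p ran from -1.60 to -0.59 on the log2 scale, the lowest in the window from 15 to 20 Mb, which holds 10 members from TUSC3 to INTS10. Over the last 20 tested genes of 8p the median was -0.84, and over the first 20 of 8q it was 0.24. HGSNAT, the last protein-coding gene tested on 8p, had 12.7, 10.4 and 12.7 TPM in the DKK1-SE+/+ samples and 7.69, 7.49 and 7.39 TPM in the DKK1-SE-/- samples. Across the centromere, the first protein-coding gene tested on 8q, SPIDR, had 12, 16.6 and 13.3 TPM and 21.7, 16.4 and 29.9 TPM. Both were named for their place. Over the 320 tested genes of 8q the median was 0.29, with 44 called lower and 116 higher, and the windows of 8q between 115 and 125 Mb had medians of -0.68.

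**Figure D4:**
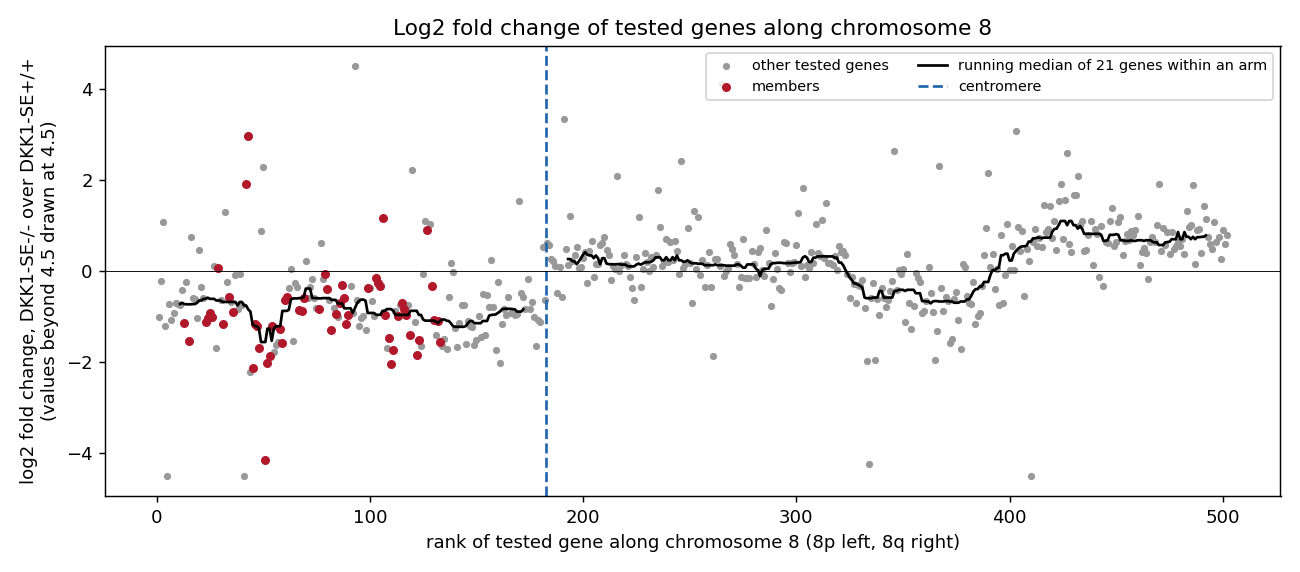
Log2 fold change of the tested genes of chromosome 8 in gene order, with members in red, a running median of 21 genes within each arm and the centromere as a dashed line. The running median stays below 0 along 8p and is above 0 where 8q begins, then falls below 0 and rises again toward the end of 8q.

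Other places in the genome had medians in the same range. Of 294 windows of 10 Mb with at least 10 tested genes, 34 on 11 chromosomes had a median of -0.5 or less. The 4 windows that lie wholly on 8p were among them and held ranks 8, 3, 9 and 1 from the telomere inward, counted from the lowest. A window of chromosome 21 had a median of -1.09 over 11 genes, and a window of chromosome 3 one of -0.98 over 20 genes. Chromosome 2, with 975 tested genes, had a median of -0.40, with 442 called lower and 68 higher. Chromosome 10, with 588 tested genes, had a median of -0.32, with 234 called lower and 81 higher. The difference between 8p and these places was not tested.

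**Figure D5:**
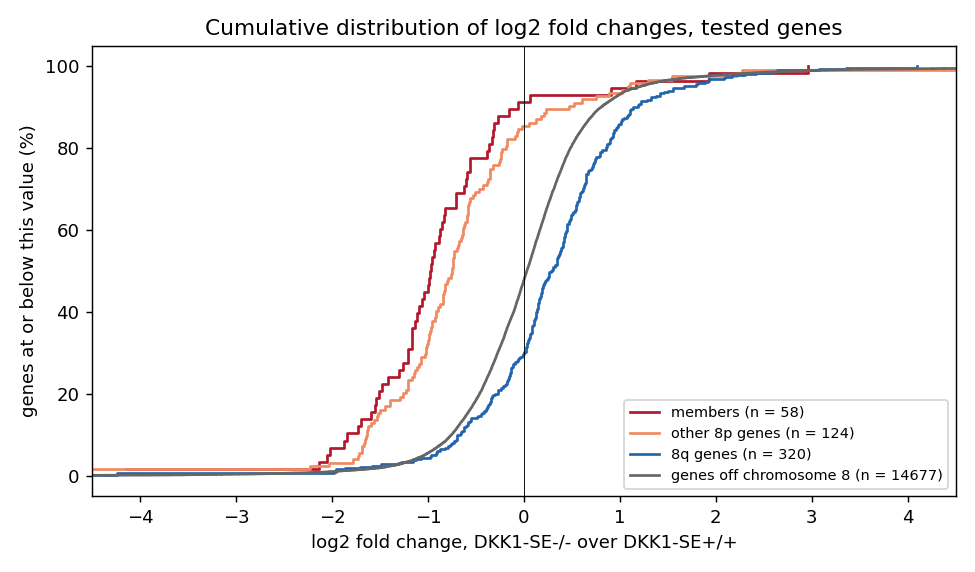
Cumulative distribution of log2 fold changes for the 58 members, the 124 other tested genes of 8p, the 320 of 8q and the tested genes of the other chromosomes. The curves of the members and of the other 8p genes lie to the left, with 91.4% and 85.5% of genes below 0, and the curve of 8q lies to the right.

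Within the members, the difference moved with base composition. The Spearman correlation of the log2 fold change with median transcript GC content was 0.61 across the 58 tested members, 0.27 across the 124 other tested genes of 8p and 0.41 across the tested genes outside 8p, which share the same 6 libraries and are not independent of each other. The 20 members of lowest GC content, from 38.3% to 44.4%, had a median of -1.35 on the log2 scale, and the 19 of highest GC content, from 51.6% to 61.6%, one of -0.59. When an offset for GC content was fitted in every library, these medians were -1.04 and -0.84, the correlation was 0.28, and the median of all tested members was -0.94. The correlation with the DKK1-SE+/+ level was -0.21 across the members.

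Several members overlap other genes. MTMR7 and VPS37A, CCDC25 and ESCO2, ESCO2 and PBK, and RHOBTB2 and TNFRSF10B overlap on opposite strands, and LOXL2 and ENTPD4 as well as LEPROTL1 and DCTN6 overlap on the same strand. The libraries were stranded, but how reads were counted by strand is not given in the sources used here, so reads of these pairs could be shared. For RHOBTB2 and TNFRSF10B the log2 fold changes were -0.06 and -0.38, and whether these differ was not tested. NAT1, PPP2CB and the TNFRSF10 receptors have close relatives in the genome, and their counts are uncertain to that extent.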

How the data were processed

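Per the labels, total RNA of 3 wild-type and 3 DKK1-SE-KO samples of PANC-1 was sequenced. The authors deposited, per gene and sample, an expected count, which need not be whole, and a TPM value, normalized within each library. The aligner, the counting program and the annotation are not given in the sources used here. Author columns with group means, fold changes and p-values were not used.

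Members were matched by gene name. Positions came from GENCODE version 44 on hg38, the build in the submitters' processing notes, for 62625 of 62703 genes, with 45 Mb as the boundary of the arms. Expected counts were rounded and tested with edgeR 4.0.16 in R 4.3.3 (filterByExpr with a minimum count of 10, TMM, quasi-likelihood F test, no covariates), with Benjamini-Hochberg adjustment over all 15179 tested genes. The standard error was the absolute log2 fold change divided by the square root of F. Per-sample log2 differences used TMM-normalized log2 CPM. The fit was tested on simulated data.

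Alternatives were DESeq2 1.42.0, RLE factors, library size alone, other filters, a replicate block, GC-content offsets, limma 3.58.1 on log2 TPM, other call limits and leaving out each sample. Members and lists were chosen with earlier results of these data known. Named are the listed TRAIL receptors, the candidate tumour suppressors, the 6 lowest and 6 highest members and the 3 nearest the median. Also named are the 3 lowest and 3 highest other genes of the arm and up to 4 called TRAIL pathway genes. Members are also given by role. Summaries used Python 3.11.15 with scipy 1.17.1.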

Additional observations from a re-analysis of the deposited data

How the results depend on the processing

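Members called lower numbered between 42 and 46 with each sample left out, and members called higher 3 or 4, while over all genes 2055 to 3855 were lower and 2001 to 3703 higher. For the arm these counts ran from 108 to 124 and from 6 to 8. With a sample left out, the median log2 fold change ran from -1.02 to -0.96 for the members and from -0.92 to -0.83 for the arm. At the limits of p under 0.05 with a log2 fold change of 1.2 or more in size, 18 members were lower and 2 higher, and 47 genes of the arm were lower and 7 higher. This rule changes both the p, which is unadjusted, and the fold limit. With 1.2 as a linear fold change, 47 members were lower and 4 higher, and 126 genes of the arm were lower and 11 higher. Over all genes, these rules called 3.7% lower and 4.96% higher on the log2 scale, and 23.3% and 24.3% on the linear scale. With a mean TPM of at least 1 required, which leaves fewer genes, 2 members and 3 genes of the arm were higher, and the median of the arm was -0.93. Of the 13675 genes then tested, 2741 were lower and 2758 higher. The members' median was -0.94 with a GC-content offset, with or without the replicate block, -1.04 with library size alone, -1.06 on log2(TPM + 0.1) and -0.93 on log2(TPM + 1) with limma. The arm's median was -0.91, -0.97 and -0.75 with these last 3 settings, -0.68 without the count filter and -0.92 for protein-coding genes. The cause of these moves was not tested, and they exceeded the SD of the medians of the DKK1-SE-/- samples, 0.014 for members and 0.0582 for the arm. With limma on log2(TPM + 0.1) the median of all genes was itself -0.11, and 2632 of all genes were lower and 1493 higher, against 2959 and 3013 in edgeR.

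Under the replicate block, 44 members were lower and 3 higher, and 112 genes of the arm were lower and 7 higher. Over all 15179 genes, 2577 were lower and 2404 higher in this setting. The correlations of same-numbered deviations were -0.123, -0.074 and -0.109 across genes, and those of other pairs ran from -0.047 to 0.153. Deviations from the mean of 3 samples constrain each other, so these values cannot decide whether the replicate numbers pair the samples.

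Over 939 pairs of a tested member or DKK1 with a setting, 886 kept both the direction and the side of the adjusted threshold, and 47 of 59 genes did so in every setting run. Of the other pairs, 28 lost a call, 14 gained a call and 11 changed direction. PPP2R2A changed direction with a GC-content offset (0.04), also with the replicate block (0.04). The other changes of direction were in genes without a call. XKR6 had -0.02 with a GC-content offset, -0.05 with the block as well, -0.00 with library size alone, and -0.01 with limma on log2(TPM + 0.1). With a sample left out it ran from -0.17 (without DKK1-SE-/- replicate 2) to 0.19, and was -0.01 without DKK1-SE+/+ replicate 1. DMTN had 0.18 and 0.09 with limma on log2(TPM + 0.1) and log2(TPM + 1), and RHOBTB2 ran from -0.19 to 0.01 with a sample left out, the latter without DKK1-SE+/+ replicate 2. The causes were not tested. Calls were lost for PPP2R2A, EPHX2, NAT1, PPP3CC and TNFRSF10B and gained for MTMR7, R3HCC1, TRIM35 and GTF2E2. LZTS1, TUSC3, MTMR7, EPHX2, DMTN and XKR6 had few counts, and whether depth limits their results was not tested.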
